A study of Mus musculus with 13 samples.

Results

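The transcripts of 10 amino acid transporter genes were followed through sorted DN3 and DN4 thymocytes. They were the cationic transporters Slc7a1 and Slc7a3, the CD98 heavy chain Slc3a2 with its light chains Slc7a5, Slc7a6 and Slc7a11, the neutral exchangers Slc1a4 and Slc1a5, and the sodium-coupled carriers Slc38a1 and Slc38a2. All 10 were present among the 47937 genes counted. The set was drawn up with results of these data in view and was chosen by measured values in part, since Slc7a3 and Slc7a11 ranked high by their read counts when the genotypes were compared in DN3 cells. For that reason no test is given for any of the 10 genes in that comparison, where their values are a description.

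Amino acids cross the plasma membrane through carriers with overlapping substrates. Slc1a5, Slc38a1 and Slc38a2 take up glutamine and other small neutral amino acids with sodium, and the CD98 complexes exchange intracellular amino acids for others outside the cell. Slc7a5 joined to Slc3a2 is the main entry route for leucine and other large neutral amino acids in proliferating lymphocytes, while Slc7a11 joined to Slc3a2 exchanges glutamate for cystine, the oxidised form of the cysteine used for glutathione. Several of these genes are known targets of ATF4, the transcription factor of the amino acid response, as is Asns, which encodes asparagine synthetase.

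RNA came from C57BL/6 mice that were 6 weeks old by the labels. All mice carried Lck-Cre, a transgene that drives Cre recombinase from a T lineage promoter. Controls were WT;Lck-Cre+ (Wt), and the other mice were Opa1fl/fl;Lck-Cre+, labelled OPA1 KO and called KO-labelled here, in which Cre is meant to delete floxed sequence of Opa1, a gene for mitochondrial inner membrane shape. Both stages were sequenced for 3 KO-labelled mice (KO45, KO49, KO51) and 3 Wt mice (WT05, WT46, WT48), and DN4 alone for WT40, so that 13 libraries came from 7 mice. DN3 and DN4 are successive CD4-CD8- stages, and β-selection, which tests for a functional T cell receptor β chain, lies between them.

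Libraries held 5926848 to 14148661 counts on genes (median 10023044). A group of 6 ribosomal RNA-like genes took 34.4% of the WT05 DN3 library, against 0.350% to 1.45% of the others, leaving it 3886190 counts on all other genes. Opa1 read counts did not separate the genotypes: Opa1 stood at 88.6 to 93.8 CPM (counts scaled by library size) in KO-labelled DN3 and 91.1 to 112 CPM in Wt DN3 libraries, and at 77.0 to 87.9 and 85.1 to 93.8 CPM in DN4. The deletion of part of a gene need not lower its total count, so the genotypes were taken from the labels as they stand. WT40 and WT46 had 0 to 2 counts of Xist and the other mice at least 10672, so sex was not balanced between the genotypes. Means of 6 of 6 DN3 markers were lower in DN4 in both genotypes, among them Il2ra, which ran from 727 to 1337 CPM in DN3 and from 9.78 to 24.1 CPM in DN4 libraries, although Nrarp barely differed in Wt mice (5.52 and 5.35 CPM). Means of 4 of 5 DN4 markers were higher in DN4 in both genotypes. The exception was Mki67, a gene of dividing cells, at 2051 CPM in the WT05 DN3 library against 410 to 644 CPM in the other DN3 libraries, so that the DN4 marker sum of WT05 DN3 was 2276 CPM against 753 to 903 CPM. A set of 6 B-cell markers summed to 881 to 4910 CPM in DN4 and to 284 to 425 CPM in DN3, although a CD4-CD8- gate leaves out cells with surface CD4 or CD8 and a lineage-negative gate, which the study used in its cytometry, would usually leave out B cells. The gate of the RNA sort is not given in the sources used here. In bulk RNA, fewer cells of a type and less RNA per cell cannot be told apart.

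Promoter sequence was at hand in RefSeq (GRCm38.p6) for 6 of the 10 genes, namely Slc7a11, Slc7a1, Slc7a6, Slc3a2, Slc1a4 and Slc38a2, and it was searched because these genes include ATF4 targets. The search used the letters TGATGNAA, a form of the C/EBP-ATF response element, on both strands of windows of 300 bases that begin 250 bases before each transcription start. Slc7a11 held 2 matches and Slc1a4 held 1, and no match lay in the windows of the other 4 genes. Over all 32851 RefSeq promoter windows, 3.97% held at least 1 match and 0.07% held at least 2. The stretches around the matches in Slc7a11 (chr3:50443614-50443753, minus strand) and Slc1a4 (chr11:20332710-20332853, minus strand) are shown 5′ to 3′, with the matches in capitals, because theirs were the windows that held one.
Slc7a11: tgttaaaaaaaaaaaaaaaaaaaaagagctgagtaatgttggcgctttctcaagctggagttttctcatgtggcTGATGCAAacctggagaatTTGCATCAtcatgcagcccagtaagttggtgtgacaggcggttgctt
Slc1a4: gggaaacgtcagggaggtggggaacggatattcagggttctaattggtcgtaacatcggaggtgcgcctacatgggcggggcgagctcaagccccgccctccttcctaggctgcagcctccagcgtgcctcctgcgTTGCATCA

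In Slc7a11 the first match begins at base -66 from the start, on the strand of the gene, and the second at -47 on the opposite strand. The match in Slc1a4 begins at -4 on the opposite strand and spans the start. A match of letters is a description of the sequence and shows no binding.

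The 10 genes fell into an abundant and a scarce set. Per kilobase of exon (CPM per kb, the scale used here to compare genes), the order in Wt DN3 cells was Slc1a5 at 55.1 ± 4.05 (SD, n = 3), Slc7a5 at 46.1 ± 5.42, Slc38a2 at 39.8 ± 9.91, Slc3a2 at 27.7 ± 1.55, Slc7a6 at 25.3 ± 2.51, Slc38a1 at 23.2 ± 7.67 and Slc7a1 at 14.7 ± 4.26 CPM per kb. The ranges of mean ± SD of neighbours in this order overlapped from Slc1a5 to Slc38a2 and again from Slc3a2 to Slc7a1, so the order within those runs is not settled. Slc1a4 at 0.51 ± 0.25, Slc7a3 at 0.20 ± 0.050 and Slc7a11 at 0.053 ± 0.021 CPM per kb were far below. Among 13312 expressed genes the Wt DN3 level per kb of Slc1a5 stood at percentile 94.0, and those of Slc1a4, Slc7a3 and Slc7a11 stood at percentiles 11.4, 6.36 and 2.90. The order of the abundant genes depended on the length used: with the longest transcript in place of all exons, Slc38a1 stood at 55.1 and Slc38a2 at 57.5 CPM per kb, above Slc7a5 at 48.6. The summed level of all 10 genes was 233 ± 17.4 CPM per kb in Wt DN3, 234 ± 32.5 in KO-labelled DN3, 210.4 ± 5.22 in Wt DN4 and 220.0 ± 26.4 in KO-labelled DN4 cells. The scarce genes made up 0.33% ± 0.13 of that sum in Wt DN3 and 1.08% ± 0.55 in KO-labelled DN3 libraries. KO49 held 1.72%, against 0.73% in KO45 and 0.81% in KO51. Slc7a3 and Slc7a11 were chosen in part by this comparison, so the shares are a description.

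**Figure D1:**
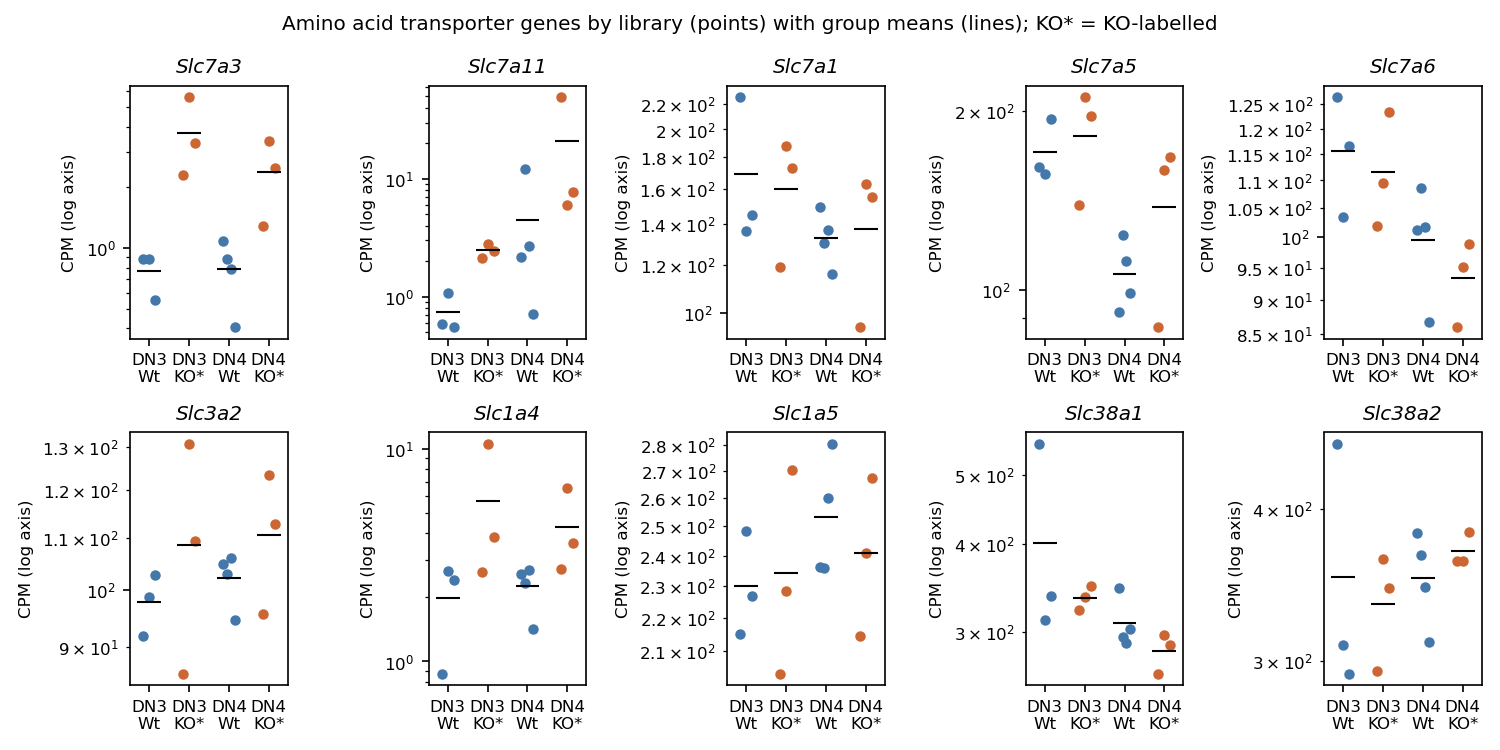
CPM (log axis, with its own range for each gene) of the 10 transporter genes in each library (points) and the group means (lines), Wt in blue and KO-labelled, marked KO*, in orange; the groups hold 3 libraries each except Wt DN4 with 4. Slc7a3 runs from 2.31 to 5.59 CPM in KO-labelled DN3 libraries against 0.55 to 0.88 CPM in Wt, while Slc7a5 falls from DN3 to DN4 in Wt.

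The first comparison asked how the transporters differed between KO-labelled and Wt mice within each stage. The scarce genes Slc7a3, Slc7a11 and Slc1a4 had the largest fitted differences of the set in both stages, all higher in KO-labelled libraries, and the abundant genes stayed within 0.40 on the log2 scale with all libraries in the fit. None of the 10 passed the test in DN4, whose libraries the ranking of Slc7a3 and Slc7a11 did not use. The set as a whole was drawn up with earlier results of these data known. The DN4 libraries come from the same mice as the DN3 libraries, with WT40 added, so they are not an independent set of animals.

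Slc7a3 encodes a cationic transporter for arginine and lysine (ENSMUSG00000031297.14, chromosome X from 101079210 to 101086020, minus strand, GENCODE M21). In DN3 it stood at 2.31, 5.59 and 3.33 CPM in KO45, KO49 and KO51 and at 0.88, 0.88 and 0.55 CPM in WT05, WT46 and WT48. All 3 KO-labelled libraries lay above all 3 Wt libraries, on 28 to 42 counts against 3 to 10. The fitted log2 difference was 2.26 (standard error 0.51). In DN4 Slc7a3 stood at 1.29, 3.39 and 2.49 CPM in KO45, KO49 and KO51 and at 1.08, 0.88, 0.79 and 0.41 CPM in WT05, WT40, WT46 and WT48. The groups again did not overlap, although KO45 lay just above WT05, on 18 and 13 counts. The log2 fold change in DN4 was 1.60 (standard error 0.44; adjusted p = 0.809 by edgeR's quasi-likelihood test), and it lay between 1.27 and 1.89 when each library was left out. Without WT40 and WT46, the mice almost without Xist counts, it was 1.68 in DN4 (adjusted p = 0.506 by edgeR) and 2.44 in DN3.

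The level of Slc7a3 can be set against Slc7a1, the abundant transporter of the same substrates, within each library. Slc7a3 made up 1.42% ± 0.45 of their summed CPM per kb in Wt DN3 and 6.48% ± 1.59 in KO-labelled DN3 libraries. In DN4 the share was 1.74% ± 0.49 in Wt and 4.86% ± 1.01 in KO-labelled libraries. This share was chosen after the values were seen and carries no test. Slc7a1 itself (chromosome 5 from 148327410 to 148399904) ran from 119 to 188 CPM in KO-labelled and from 137 to 226 CPM in Wt DN3 libraries, which overlapped. In DN4 its log2 fold change was 0.08 (standard error 0.18; adjusted p = 0.984).

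Slc7a11, the cystine and glutamate exchanger (ENSMUSG00000027737.10, chromosome 3 from 49892526 to 50443614, minus strand), stood in DN3 at 2.14, 2.79 and 2.45 CPM in KO45, KO49 and KO51. The Wt DN3 libraries of WT05, WT46 and WT48 held 0.59, 1.06 and 0.55 CPM. These groups did not overlap, on 21 to 26 counts against 2 to 12, and the fitted log2 difference was 1.65 (standard error 0.46). In DN4 Slc7a11 stood at 49.04, 5.95 and 7.77 CPM in KO45, KO49 and KO51 and at 2.17, 12.2, 2.68 and 0.71 CPM in WT05, WT40, WT46 and WT48. Here the groups overlapped, with WT40 above KO49 and KO51. The log2 fold change in DN4 was 2.30 (standard error 0.98; adjusted p = 0.883 by edgeR). It was 0.65 without KO45 and 3.51 without WT40. With WT40 and WT46, the mice almost without Xist counts, both left out it was 3.88. With KO45 and WT40 both left out, an alternative chosen after seeing the data, it was 1.88 (adjusted p = 0.855). The 5 gene models that overlap Slc7a11 had 0 counts in every library.

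A set of 4 markers of immature single positive (ISP) and DP thymocytes, the stages after DN4 (Cd8a, Cd8b1, Cd4 and Rag1), was highest in the same DN4 libraries as Slc7a11. Their summed level was 4039.6, 1126 and 1585 CPM in KO45, KO49 and KO51 and 869.8, 2398, 1465 and 426 CPM in WT05, WT40, WT46 and WT48. KO45 was highest and WT40 second for both, and WT48 was lowest for both. Cd4 alone stood at 671 CPM in KO45, 249 CPM in WT40 and 18.6 CPM in WT48. With the log2 of that marker sum as a covariate, also chosen after seeing the data, the log2 fold change of Slc7a11 in DN4 was 0.91 (standard error 0.29; adjusted p = 0.955) and that of Slc7a3 was 1.69 (standard error 0.48; adjusted p = 0.834). In DN3 libraries the marker sum ran from 669 to 781 CPM in KO-labelled and from 702 to 1062 CPM in Wt mice, most of it Rag1, which DN3 cells also express. The other markers were low in DN3, with Cd4 at 5.30 to 9.98 CPM in KO-labelled and 3.63 to 6.44 CPM in Wt libraries, Cd8b1 at 21.5 to 33.1 and 12.0 to 26.8 CPM, and Cd8a at 25.8 to 38.5 and 11.3 to 23.7 CPM. Of these, Cd8a was higher without overlap in KO-labelled DN3 libraries, as Slc7a11 was. Since the covariate was chosen after seeing the data, its fit in DN4 is a description. The part of these markers in the Slc7a11 differences was not tested in either stage.

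**Figure D2:**
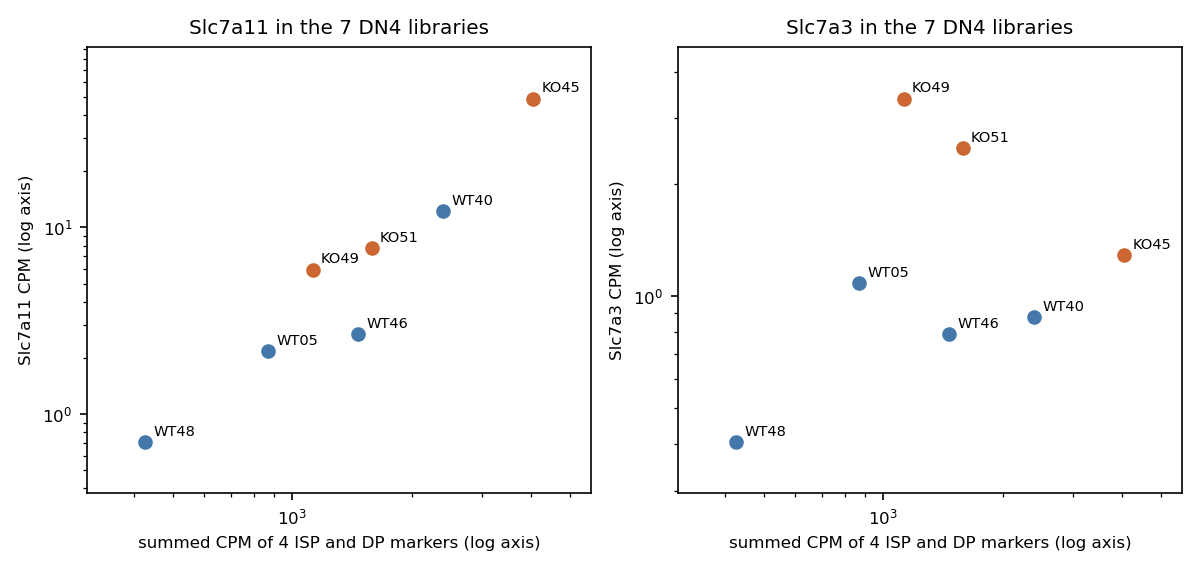
Slc7a11 (left) and Slc7a3 (right) in CPM against the summed CPM of 4 ISP and DP markers in the 7 DN4 libraries (1 point a library, log axes; Wt blue, KO-labelled orange). KO45 and WT40, with marker sums of 4039.6 and 2398 CPM, have the most Slc7a11 at 49.04 and 12.2 CPM, whereas KO49 has the most Slc7a3 at 3.39 CPM with a marker sum of 1126 CPM.

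Slc1a4, an exchanger for alanine, serine and cysteine (ENSMUSG00000020142.12, chromosome 11 from 20302180 to 20332713, minus strand), stood in DN3 at 2.64, 10.5 and 3.83 CPM in KO45, KO49 and KO51. In Wt DN3 it stood at 0.88, 2.65 and 2.42 CPM in WT05, WT46 and WT48. WT46 lay just above KO45, so the groups overlapped, and KO49 was the highest library. The fitted log2 difference in DN3 was 1.37 (standard error 0.60) and 0.61 without KO49. In DN4 Slc1a4 stood at 2.72, 6.50 and 3.59 CPM in KO45, KO49 and KO51 and at 2.58, 2.34, 2.68 and 1.42 CPM in WT05, WT40, WT46 and WT48. The groups did not overlap, but KO45 and WT46 lay side by side. The log2 fold change in DN4 was 0.94 (standard error 0.36; adjusted p = 0.883) and 0.52 without KO49. Its close relative Slc1a5, the main glutamine exchanger of the family (chromosome 7 from 16781340 to 16798274), was flat at 214 to 267 CPM in KO-labelled and 236 to 280.5 CPM in Wt DN4 libraries, and its log2 fold change was -0.04 (standard error 0.11; adjusted p = 0.984).

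The CD98 genes other than Slc7a11 showed smaller differences. Slc7a5 (ENSMUSG00000040010.10, chromosome 8 from 121881150 to 121907694) stood at 86.8, 159 and 168 CPM in KO45, KO49 and KO51 DN4 libraries and at 92.0, 124, 112 and 99.0 CPM in WT05, WT40, WT46 and WT48. KO49 and KO51 lay above all 4 Wt libraries and KO45 below them, and the log2 fold change was 0.40 (standard error 0.22; adjusted p = 0.883). It was 0.63 without KO45 (standard error 0.14; adjusted p = 0.805), 0.24 without KO51 and 0.72 without KO45 and WT40. In DN3 the Slc7a5 levels of 139, 211 and 196 CPM in KO45, KO49 and KO51 overlapped the Wt levels of 162, 157 and 194 CPM. The heavy chain Slc3a2 (chromosome 19 from 8706882 to 8723369) had a fitted DN4 difference of 0.15 on the log2 scale (standard error 0.10; adjusted p = 0.910). The light chain Slc7a6 (chromosome 8 from 106168857 to 106198706), which exchanges cationic for neutral amino acids, had a difference of -0.06 (standard error 0.11; adjusted p = 0.974). The carriers Slc38a1 and Slc38a2, both on chromosome 15, had values of -0.09 and 0.11 (standard errors 0.095 and 0.10).

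Over the whole set in DN4, 7 genes were higher and 3 lower in KO-labelled libraries, with a median log2 fold change of 0.13 against 0.0023 over all 13084 genes tested. At an adjusted p under 0.05, 0 of 10 were called, against 0.0535% of all genes (7, all lower in KO-labelled libraries); DESeq2's Wald test also called 0 of 10. At an unadjusted p under 0.05 there were 3 of 10, Slc7a3, Slc7a11 and Slc1a4, against 5.46% of all genes. Slc7a3 passed the filter on low counts in DN4 only with the KO-labelled libraries, the group in which it was high, so the counts that include it lend no support. Slc7a3 and Slc1a4 were higher without overlap, as were 2.74% of all genes, and 0 of 10 were lower without overlap, against 4.34%. Of 10 marker lists, 2 also separated the genotypes in DN4: the DN3 marker sum was 221 to 251 CPM in KO-labelled and 144 to 199 CPM in Wt libraries, and that of 6 markers of NK cells and innate lymphoid cells was 233 to 336 CPM and 359 to 459 CPM. In the DN3 list, DN4 means in KO-labelled and Wt mice were 105 and 52.8 CPM for Notch3 and 42.1 and 28.6 CPM for Ptcra. Il2ra was higher in KO-labelled mice too, but Dtx1 (54.5 and 59.0 CPM) and Hes1 were lower and Nrarp was level. Most of the other sum was Gzma (240 and 298 CPM), and its Klrb1c was higher in KO-labelled mice (2.68 and 2.48 CPM). The part of both lists in the transporter differences was not tested. Log2 differences reached 1 in size in 2 of 10, Slc7a3 and Slc7a11, against 1.76% of all genes. In DN3, where the choice of genes used the comparison, a fold change of that size was seen in 3 of 10 against 1.78% of all genes; by size Slc7a3 ranked 35, Slc7a11 66 and Slc1a4 94 among 12105 genes, and these 3 passed the filter there only with the KO-labelled libraries. Slc7a3 and Slc7a11 were higher without overlap, as were 3.1% of all genes, and 0 of 10 were lower without overlap (3.34%). The 7 abundant genes lay between -0.26 and 0.14 in DN3. No gene of the 12105 passed an adjusted p of 0.05 there by edgeR (0%; 168 at an unadjusted p under 0.05, and 1 gene by DESeq2).

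**Figure D3:**
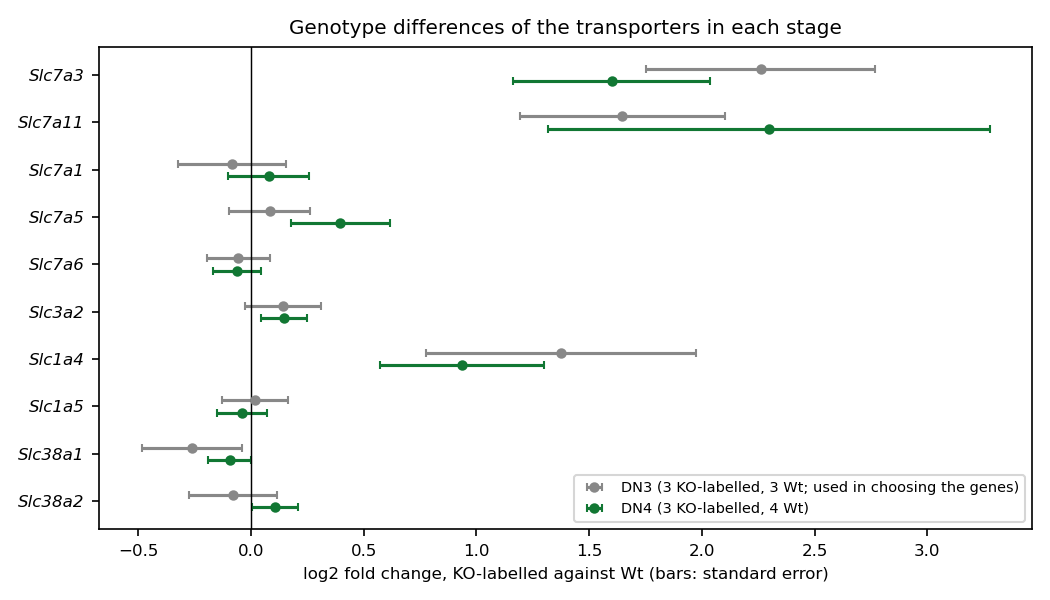
Fitted log2 fold change of each transporter, KO-labelled against Wt, in DN3 (grey, 3 against 3 libraries) and DN4 (green, 3 against 4); bars are standard errors and the line marks no difference. Slc7a3 (2.26 and 1.60), Slc7a11 (1.65 and 2.30) and Slc1a4 (1.37 and 0.94) lie to the right in both stages, and the abundant genes lie between -0.26 and 0.40.

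The KO-labelled mice also differed from each other. KO45 had the lowest level of the KO-labelled mice for 10 of 10 transporters in DN3 and, in both stages, for 8 of 10, the exceptions being Slc7a11 and Slc38a2 in DN4. Over 13361 genes, KO45 was lowest in 38.4% in DN3 and in 24.9% in both stages. KO49 was the highest in both stages for Slc7a3, Slc1a4, Slc7a1 and Slc3a2. The share of all genes with KO49 highest was not counted, so this is a description of these genes. Asns, measured beside them, stood at 5.03, 11.7 and 4.81 CPM in DN3 and at 2.36, 11.3 and 8.07 CPM in DN4 of KO45, KO49 and KO51, also with KO49 highest. In Wt libraries Asns ran from 0.62 to 1.46 CPM in DN3 and from 0.41 to 0.71 CPM in DN4. Its DN4 log2 fold change was 3.76 (standard error 0.53; adjusted p = 0.109 by edgeR), with 4 to 9 counts in the Wt libraries, so that Asns passed the filter only with the KO-labelled group. The study, which used DESeq2, reported Asns as upregulated in Opa1-deficient cells of either stage. Of 25 amino acid response genes outside the transporters, 17 passed the filter on low counts in DN4; all 17 had positive log2 fold changes, with a median of 0.25, against 50.5% of all genes and a median of 0.0023. By edgeR 0 of the 17 were called (3 at an unadjusted p under 0.05, against 5.46% of all genes), and 2 of them, Asns and Trib3, passed the filter only with the KO-labelled libraries, so these counts are a description.

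The next comparison followed the transporters from DN3 to DN4 across β-selection. Of the 8 transporters of the set that were tested, Slc7a5 was the only one called in Wt mice, where its RNA fell 1.63-fold. The stage change of the heavy chain Slc3a2 was near zero. Slc7a11 was higher in DN4 than in DN3 in every mouse, by an amount that differed widely. Slc7a5, Slc7a6 and Slc38a1 were lower in DN4 in 6 of 6 mice, and Slc7a1 and Slc7a3 in 5 of 6. Over 13361 genes, 17.6% were lower and 21.9% higher in DN4 in all 6 mice, against 3 and 1 of the 10 transporters.

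In Wt mice Slc7a5 stood at 162, 157 and 194 CPM in the DN3 libraries of WT05, WT46 and WT48 and at 92.0, 124, 112 and 99.0 CPM in the DN4 libraries of WT05, WT40, WT46 and WT48. Every DN4 library lay below every DN3 library. The log2 fold change was -0.70 (standard error 0.13; adjusted p = 0.00705 by edgeR), and leaving out each library gave -0.78 to -0.60 with adjusted p of 0.00808 to 0.0359. With library totals in place of TMM scaling it was -0.53 (adjusted p = 0.275). Slc7a5 was thus 1 of 8 transporters called, against 22.9% of all 12691 genes tested (9.43% lower). It alone of the 8 was lower without overlap, as were 15% of all genes, and 0 of 8 were higher without overlap, against 20%.

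The other 7 tested genes were not called in Wt mice. Slc38a1 had a log2 fold change of -0.40 (adjusted p = 0.192), which was -0.11 without the DN3 library of WT05, whose 552 CPM of Slc38a1 compared with 312 and 337 CPM in WT46 and WT48. Slc7a1 had -0.37 (adjusted p = 0.194), which was -0.12 without the same library. Slc7a6 had -0.24 (adjusted p = 0.186), and Slc3a2, Slc1a4, Slc1a5 and Slc38a2 lay between -0.03 and 0.11 (adjusted p from 0.526 to 0.932). Slc7a11 and Slc7a3 have no test between the stages, since their choice used the DN3 libraries. Slc7a11 was 2.48 higher on the log2 scale in Wt DN4 than in Wt DN3 cells, and 1.25 higher without WT40. Slc7a3 did not pass the filter on low counts in Wt mice, at 0.77 ± 0.19 CPM (SD, n = 3) in DN3 and 0.79 ± 0.28 CPM (n = 4) in DN4.

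In KO-labelled mice 0 of 8 transporters were called by edgeR without pairing (2 at an unadjusted p under 0.05, Slc7a6 and Slc38a1, against 33% of all genes; DESeq2 also called 0), against 18.6% of 12580 genes (7.34% lower). Slc7a6 and Slc38a1 were lower without overlap, as were 16.7% of all genes, and 0 of 8 were higher without overlap, against 22%. With the mouse as a block 4 of 8 were called, all lower in DN4, against 35.8% of all genes (16.9% lower). In the blocked fit Slc7a5 fell by 0.46 on the log2 scale (adjusted p = 0.00849; -0.42 with adjusted p = 0.303 unblocked). Slc7a6 fell by 0.28 (adjusted p = 0.0264; 0.126 unblocked), Slc38a1 by 0.27 (adjusted p = 0.0268; 0.109 unblocked) and Slc7a1 by 0.25 (adjusted p = 0.0418; 0.527 unblocked). In Wt mice the block called 1 of 8, against 18.9% of all genes (6.41% lower): Slc7a5 fell by 0.78 (adjusted p = 0.0119); WT40, with no DN3 library, adds nothing to that fit.

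The Slc7a5 level in KO-labelled mice went from 139 to 86.8 CPM in KO45, from 211 to 159 CPM in KO49 and from 196 to 168 CPM in KO51. The DN3 and DN4 ranges of the group therefore overlapped while each mouse fell. The difference between the KO-labelled and the Wt change of Slc7a5 was 0.28 (standard error 0.31), and 0.32 (standard error 0.18) with the mouse as a block. For Slc7a3 it was -0.70 (standard error 0.70), and -0.56 (standard error 0.59) with the block. Taken mouse by mouse on log2(CPM + 0.1), Slc7a3 changed by -0.79, -0.71 and -0.41 in KO-labelled and by 0.27, -0.15 and -0.36 in Wt mice. It was the 1 of 10 transporters whose changes in KO-labelled mice lay below those in Wt mice without overlap, as did 5.85% of 13361 genes, and 0 of 10 lay above without overlap (5.13%). Such a difference holds the DN3 genotype comparison and was not tested for any of these genes. Slc7a11 was 3.06 higher on the log2 scale in KO-labelled DN4 than in DN3 cells and 1.43 higher without KO45, in which it went from 2.14 to 49.04 CPM. Slc7a3 was 0.64 lower (standard error 0.47).

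**Figure D4:**
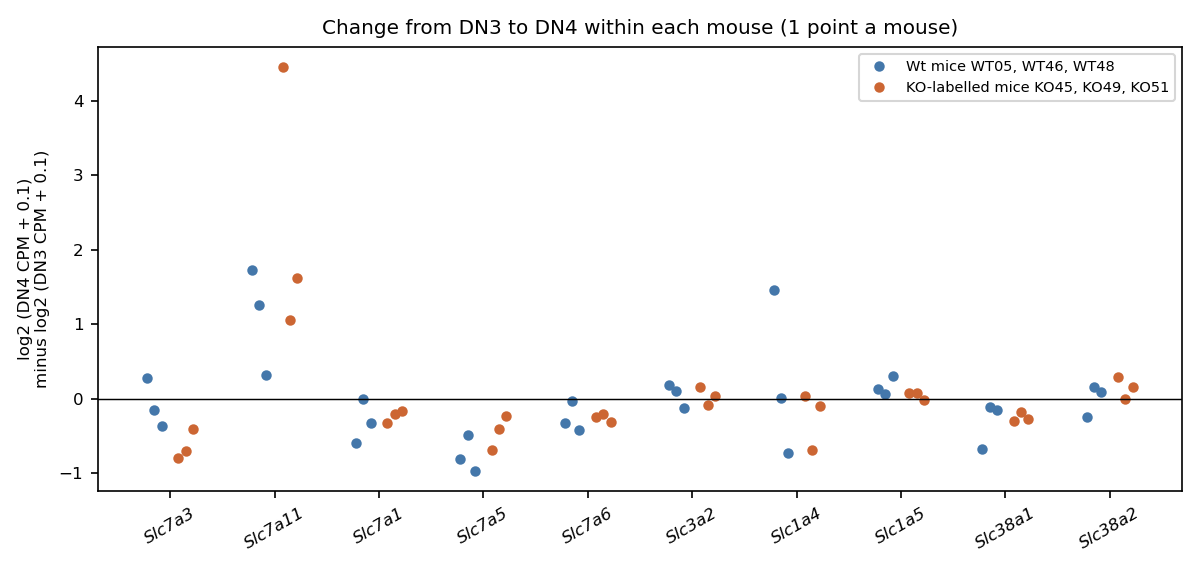
Change of each transporter from DN3 to DN4 within each mouse, as the difference of log2 (CPM + 0.1), with 1 point for each of 3 Wt (blue) and 3 KO-labelled (orange) mice. Slc7a5, Slc7a6 and Slc38a1 lie below 0 in 6 of 6 mice, and Slc7a11 lies above 0 in all 6, from 0.32 in WT48 to 4.45 in KO45.

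Because Slc7a5 fell and the stage change of its partner Slc3a2 was near zero, their ratio within a library shifted between the stages. The ratio of Slc7a5 to Slc3a2 in CPM per kb was 1.66 ± 0.14 in Wt DN3 and 0.995 ± 0.13 in Wt DN4 libraries, from 1.52 to 1.80 and from 0.835 to 1.14. In KO-labelled mice it was 1.60 ± 0.095 in DN3 and 1.17 ± 0.28 in DN4. The ranges of the stages did not overlap in either genotype. This ratio was chosen after the values were seen and was not tested.

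Markers of other cells moved with the stage as well. The B-cell sum went from at most 425 CPM in DN3 to at least 881 CPM in DN4 libraries, with group means of Pax5 from 0.70 to 1.08 CPM in DN3. Of the ISP and DP markers, Cd4 went from 3.63 to 9.98 CPM in DN3 to 18.6 to 671 CPM in DN4 and Cd8a from 11.3 to 38.5 CPM to 78.6 to 1133 CPM, both without overlap, while Rag1 overlapped, at 606 to 1007 CPM and 251 to 1590.4 CPM. A list of 5 plasmacytoid dendritic cell markers summed to 258 to 463 CPM in DN3 and 523 to 983 CPM in DN4. Most of that rise was Ccr9, with group means of 168 and 173 CPM in DN3 and 512 and 575 CPM in DN4 (KO-labelled and Wt), and Irf8 was higher as well, while the means of Bst2 and Tcf4 were lower in DN4 in both genotypes. Siglech, a defining gene of these cells, was at 0 in DN3 and had means of 0.095 and 0.13 CPM in DN4. A list of 6 stromal markers summed to 68.5 to 162 CPM in DN3 and 23.1 to 36.9 CPM in DN4, which came from Epcam and Pdgfrb. Of the other 4, Col3a1 went from 0 to means of 0.55 and 2.12 CPM, Col1a1 from 0.98 to 0.71 CPM in KO-labelled and from 0.56 to 1.59 CPM in Wt mice, and Foxn1, a defining gene of thymic epithelium, was at 0 in every group. Of the 6 markers of NK cells and innate lymphoid cells, 5 had higher means in DN4 in both genotypes, among them Klrd1, from 0 and 0.037 CPM to 5.43 and 12.7 CPM, and Prf1, from 0.23 and 0.33 CPM to 7.87 and 12.1 CPM (KO-labelled and Wt), with Ncr1 at 0 in DN3. Their sum overlapped between the stages, at 240 to 326 CPM in DN3 and 233 to 459 CPM in DN4, since most of it was Gzma. Of 5 γδ T cell markers 2 had higher and 2 lower means in DN4 in both genotypes. The part of these cells in the stage changes was not tested. Myeloid markers summed to at most 18.0 CPM in any library.

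Of 47 other amino acid transporters found in the table, 19 passed the filter in the DN4 comparison of genotypes and 0 were called by edgeR, against 0.0535% of all genes (1 at an unadjusted p under 0.05, against 5.46%). Between the stages in Wt mice 18 passed, of which 4 rose and 2 fell from DN3 to DN4 in the fit without pairing, against 13.4% and 9.43% of all genes. Slc6a19, a sodium-coupled carrier of neutral amino acids, rose by 3.65 on the log2 scale (adjusted p = 0.00897), and by 2.86 (adjusted p = 0.000966) with the mouse as a block, a fit to which WT40 adds nothing. It held 4 to 14 counts in Wt DN3 and 47 to 316 in Wt DN4 libraries, and passed the filter only with DN4, where it was high. Its calls in Wt mice, and the count of 4 that includes it, therefore lend no support. Slc43a2, a carrier of large neutral amino acids, rose by 1.07 (adjusted p = 0.00250), and the proton-coupled carriers Slc36a4 and Slc36a1 rose by 1.02 and 0.53 (adjusted p = 0.0268 and 0.0375). Slc16a10, which carries aromatic amino acids, fell by 0.75 (adjusted p = 0.00158), and Slc7a4 fell by 1.54 (adjusted p = 0.0381). With the mouse as a block the calls of Slc36a1 and Slc7a4 were lost (adjusted p = 0.0643 and 0.105) and Slc43a1, a carrier of large neutral amino acids, was called lower (-0.55; adjusted p = 0.0373).

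In KO-labelled mice 3 of 18 other transporters rose and 2 fell in the fit without pairing, against 11.2% and 7.34% of all genes. Slc6a19 rose by 3.50 (adjusted p = 0.0208), Slc43a2 by 1.39 (adjusted p = 0.0143) and Pqlc2, a lysosomal exporter of cationic amino acids, by 1.505 (adjusted p = 0.0271). Slc16a10 fell by 0.87 (adjusted p = 0.0224) and Slc7a4 by 1.60 (adjusted p = 0.00952). The block kept these 5 calls and added Slc36a4 and Slc36a1, higher by 0.68 and 0.49 (adjusted p = 0.0105 and 0.0104). Slc6a19 stood at 46.8, 5.74 and 15.1 CPM in DN4 of KO45, KO49 and KO51 and at 7.58, 30.8, 11.3 and 4.77 CPM in WT05, WT40, WT46 and WT48. As for Slc7a11, KO45 and then WT40 were highest and WT48 lowest, the order of the ISP and DP marker sum at both ends; its part in the stage change was not tested.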

How the data were processed

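RNA of sorted DN3 and DN4 thymocytes was measured in 13 libraries. The authors prepared stranded mRNA libraries, used Cutadapt for trimming, STAR for mapping and featureCounts for counting; the submitters' processing notes name mm10. The deposited table holds whole-number counts, not normalized. The annotation release and strand setting are not given in the sources used here. Symbols and coordinates come from GENCODE M21 on GRCm38 (47224 of 47937 identifiers found without their version).

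Every comparison used only its own groups, in edgeR 4.0.16 (R 4.3.3; filterByExpr with a minimum count of 10, TMM, quasi-likelihood test) and adjusted by Benjamini-Hochberg over all genes tested, with a threshold of 0.05. CPM use TMM-scaled totals over all 13 libraries. Alternatives were other scalings, no filter, DESeq2 1.42.0, leaving out ribosomal RNA-like genes or libraries, 1 joint fit and the mouse as a block. Tested on simulated counts of 13084 genes, edgeR recovered 86% of genes changed 4-fold between the genotypes in DN4. Of its calls there, 3.91% were false. Between the stages in Wt mice, on 12691 genes, it recovered 81%, and 7.43% of its calls were false. The changed genes were drawn at random from all genes past the filter, so these shares do not measure recovery of the scarce transporters. Mouse numbers pair the libraries: deviations of a mouse's DN3 and DN4 libraries from their group means correlated at 0.118 to 0.522 over 13361 genes. No libraries of a group agreed within sampling noise (smallest chi-square per degree of freedom 5.85).

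The members and lists were chosen with earlier results of these data known. All 10 transporters are named, other transporters when called (at most 6 a comparison in the fit without the block), and Asns. Outside that rule, Slc43a1, and Slc36a4 and Slc36a1 in KO-labelled mice, are named for calls that the block changed, and Slc6a9 and Trib3 were chosen after their values were seen. A further ISP and DP marker is left out of the list and not reported here.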

Additional observations from a re-analysis of the deposited data

How the results depend on the processing

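Of 392 tested transporter values under alternatives, 361 kept their direction and side of the threshold, 26 reversed (0 with an adjusted p under 0.05), 1 lost its call and 4 gained one. In the DN4 genotype comparison the count of all genes called, 7, became 11 without a filter, 54 with DESeq2, 1 without WT40 and WT46, 0 without the DN4 libraries of KO45 and WT40, 7 with the ISP and DP marker covariate, and 0 to 8 leaving out each library (0 without KO49, KO51, WT05, WT40 or WT46, and 2 without KO45); the transporters called stayed at 0 in each. Reversed values near zero were Slc7a6 at 0.032 without WT40 and WT46 and 0.029 without KO45 and WT40, Slc1a5 at 0.023 with the covariate, and leave-one-out ranges of -0.11 to 0.027 for Slc1a5 and -0.041 to 0.28 for Slc7a1. In DN3 the count went from 0 to 1 without a filter, 1 with DESeq2, 1 without WT40 and WT46, and 0 to 1 leaving out each library. Between the stages in Wt mice the count of 2903 became 1782 with library totals, where 0 transporters were called, 1723 without WT40 and WT46, and 1845 (without the DN4 library of WT05) to 3393 leaving out each library. There Slc38a2 reversed to 0.24 with library totals, 0.0059 without a filter, 0.0015 with DESeq2 and 0.16 without WT40 and the DN3 library of WT05; the last setting, chosen after seeing the data, also gave -0.027 for Slc3a2 and -0.22 for Slc1a4. Leave-one-out ranges were -0.014 to 0.072 for Slc3a2, -0.20 to 0.33 for Slc1a4 and -0.14 to 0.19 for Slc38a2. In KO-labelled mice the count of 2338 became 4499, and the transporters called 4, with the mouse as a replicate block, and 1407 (without the DN3 library of KO49) to 2790 leaving out each library. Slc3a2 gave -0.00050 with library totals; leave-one-out ranges were -0.13 to 0.14 for Slc3a2, -0.079 to 0.11 for Slc1a5 and -0.85 to 0.36 for Slc1a4. The block changed no other call among the 8 tested transporters of the set. The cause of these shifts was not tested.

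Slc7a3, Slc7a11 and Slc1a4 rest on few counts, down to 2 in a DN3 library, so depth limits the precision of their values. Read counts do not show transport or surface protein.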

Other observations

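The glycine transporter Slc6a9, chosen after its values were seen, stood in DN3 at 1.07, 2.53 and 2.35 CPM in KO45, KO49 and KO51. The Wt DN3 libraries of WT05, WT46 and WT48 held 0, 0.80 and 0.44 CPM. In DN4 it stood at 0.72, 1.38 and 1.69 CPM in KO45, KO49 and KO51 and at 0.67, 0.098, 0.24 and 0 CPM in WT05, WT40, WT46 and WT48. The KO-labelled libraries lay above the Wt libraries in both stages, on 10 to 24 counts against 0 to 9, as did 3.1% of all genes tested in DN3 and 2.74% in DN4. In DN4 the nearest libraries, KO45 and WT05, held 10 and 8 counts. Slc6a9 passed the filter in DN3 only with the KO-labelled libraries and did not pass the filter on low counts in DN4, so no test is given.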
